A study of Solenopsis japonica with 2 samples.

Results

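Chromatin, transcription and RNA processing genes were followed in whole workers of the fire ant Solenopsis japonica kept at low or at room temperature. Members were contigs, the pieces of transcript assembled from the reads, whose best match in the NR protein or NT nucleotide database carried 1 of 10 words or phrases, namely histone, chromatin, YEATS, helicase, splicing, RNA-binding, RNA polymerase, bromodomain, methyltransferase or polyadenylation. Names with zinc finger, transcription factor or transposon were to be dropped, as were contigs matched to a mammal or a virus. Of the 4487 contigs in the deposited comparison, 49 matched the words, 1 was dropped for a bat match and 48 remained. The dropped contig (c80020_g2_i1, SETMAR-like by its protein match) had 50 counts in T9 and 7 in T25.

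The T9 library came from medium-sized adult workers of wild type incubated at 9 °C for 24 h, and the T25 library from such workers incubated at 25 °C for 24 h as the control. Each temperature has 1 library of RNA pooled from several whole bodies, all of laboratory colonies raised from 1 collection site, so no difference can be set against the spread between pools of ants, and no p-value is given. The deposited table is a selection by the authors in which every contig, and so each member, differs at least 2.35-fold. It is much longer than the paper's list of differentially expressed unigenes, so presence in it is not such a call. Unchanged contigs were not analysed here. In whole bodies, fewer cells of a type and less RNA per cell cannot be told apart.

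DNA in the nucleus is wound around octamers of the core histones H2A, H2B, H3 and H4, and linker histone H1 binds where the DNA enters and leaves. Enzymes that add or remove methyl and other groups on histones, together with remodelling helicases, set how open a gene is. RNA polymerase II, recruited with the help of Mediator, then makes the pre-mRNA, which is capped, spliced and given a poly(A) tail under the control of RNA-binding proteins. Most histone mRNAs of dividing animal cells end in a stem-loop without a poly(A) tail, and the libraries were made with a kit that selects poly(A) RNA.

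The 48 members fell on both sides. In the T9 library 27 were higher and 21 lower, while 54.7% of all contigs of the table were higher and 45.3% lower. Of the members, 15 were at least 4-fold higher in T9, against 36.9% of all contigs, and 18 were at least 4-fold lower, against 30.8% of all contigs. The median log2 ratio, T9 over T25, was 1.47 over the members and 1.45 over all contigs. Within each side it was 2.03 for the higher members and -2.53 for the lower ones, against 2.15 and -2.18 over all contigs on the same sides. No contig of the table has an absolute log2 ratio under 1.23, so a median over both sides mainly shows which side holds more contigs.

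Depth differed between the sides. The median total of a member, both libraries together, was 88 counts for members higher in T9 and 27 counts for members lower in T9. Among the 16 members with a total of at least 100 counts, 13 were higher and 3 lower in T9, while 64.2% of all contigs of that depth were higher. Among the 32 members with smaller totals, 14 were higher and 18 lower, while 49.9% of all contigs of that depth were higher. In 19 of the 48 members the library with the lower count held 3 or fewer counts, with T9 the higher library in 8 and the lower in 11. The same held for 33.5% of all contigs, of which 754 were higher and 748 lower. Summed over the members, 9917 unscaled counts were in T9 and 3724 in T25, of which c79765_g1_i1 alone gave 2682 and 857. Over all contigs the sums were 7176142 in T9 and 11259918 in T25, where the largest contig alone held 8778590.

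**Figure D1:**
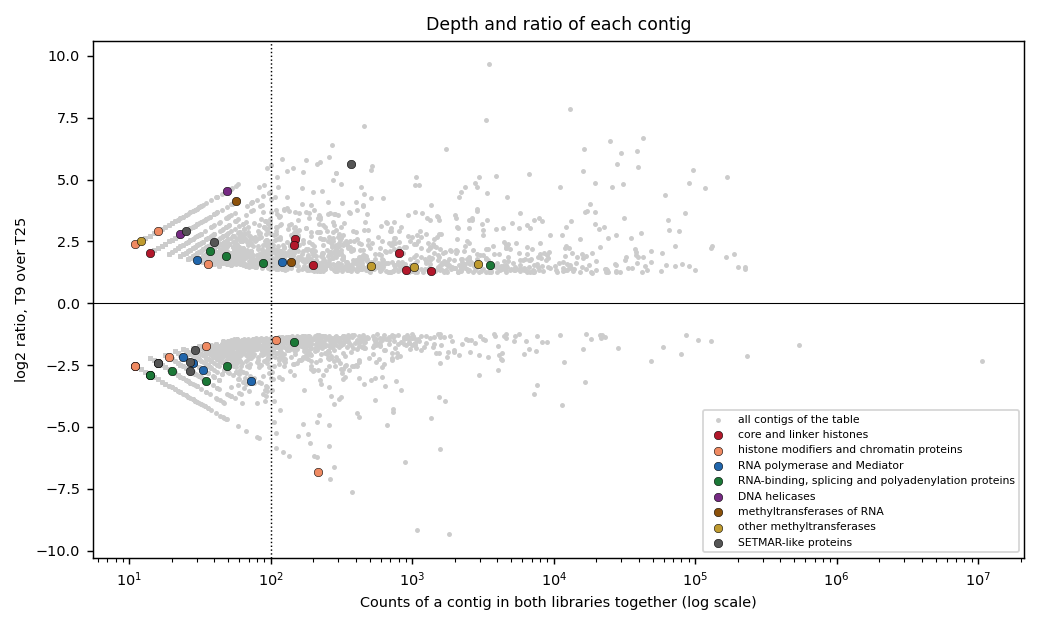
Counts of each contig in both libraries together (horizontal, log scale) against its log2 ratio, T9 over T25 (vertical). Grey points are all 4487 contigs, coloured points the 48 members by role, and the dotted line stands at 100 counts. To the right of that line 13 members lie above 0 and 3 below.

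Among the role lists of more than 5 contigs, the histones were the most one-sided. The smaller lists, of DNA helicases and methyltransferases, lay wholly on the higher side. Of 8 histone contigs 7 were higher in the T9 library, namely H2A, H2B, both H4 contigs, both linker histones and H3.3. The last is a variant and the only H3 contig. Another variant, H2A.V, was lower. A total of at least 100 counts was reached by 6 histone contigs, and 64.2% of all contigs of that depth were higher in T9. Summed over the 8, 2733 counts were in T9 and 861 in T25. Here and below, folds are ratios of counts scaled by the normalised library sizes, followed by an exact Clopper-Pearson 95% interval that covers counting error only. FPKM values, which are per length of contig, give the levels.

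H4 had the highest histone levels. The contig c71783_g1_i1 stood at 59.7 FPKM in T9 and 22.3 FPKM in T25, from 990 and 375 counts, 2.44-fold (2.17 to 2.76) higher in T9. The other H4 contig, c107315_g1_i1, stood at 43.1 FPKM in T9 and 15.3 FPKM in T25, from 661 and 238 counts, and was 2.57-fold (2.21 to 2.99) higher. The intervals of both overlap, and their best matches are different Solenopsis invicta genes of the same name (LOC105198240 and LOC105193509), so reads shared by near-identical copies could have been split between them. H3.3 (c68959_g1_i1), the variant laid down outside DNA replication, had 23.2 FPKM in T9 and 4.03 FPKM in T25. Its 124 counts in T9 and 22 in T25 made it 5.22-fold (3.3 to 8.62) higher in T9, and it was named by its nucleotide match alone.

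H2B (c67432_g1_i1), a partner of H2A in the octamer, had 130 counts in T9 and 19 in T25, or 9.89 and 1.42 FPKM, and was 6.33-fold (3.90 to 10.9) higher in T9. Its interval lies above those of both H4 contigs. The H2A contig c80840_g3_i1 had 12 counts in T9 and 2 in T25, 5.55-fold (1.24 to 51.1) higher, an interval too wide to order it among the histones. H2A.V (c104037_g1_i1), the variant used at active genes and in DNA repair in flies, had 1 count in T9 and 10 in T25, 10.8-fold (1.54 to 469) lower in T9. It was named by its nucleotide match alone, with no protein match.

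Linker histones, which compact the nucleosome chain, were higher in both cases. H1B-like (c69728_g1_i1) had 664 counts in T9 and 148 in T25, or 12.6 and 2.76 FPKM, which is 4.15-fold (3.47 to 5.0) higher in T9. The contig matched to histone H1A, sperm-like (c88291_g2_i1) had 151 counts in T9 and 47 in T25, or 3.28 and 1.01 FPKM, 2.97-fold (2.13 to 4.22) higher, and the intervals of both linker histones overlap. Identifiers of the matched Solenopsis invicta genes run in sequence for H1, H4 and H2B (LOC105193508, LOC105193509 and LOC105193510) and for H1A and H4 (LOC105198239 and LOC105198240). Gene positions in Solenopsis japonica were not analysed here.

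**Figure D2:**
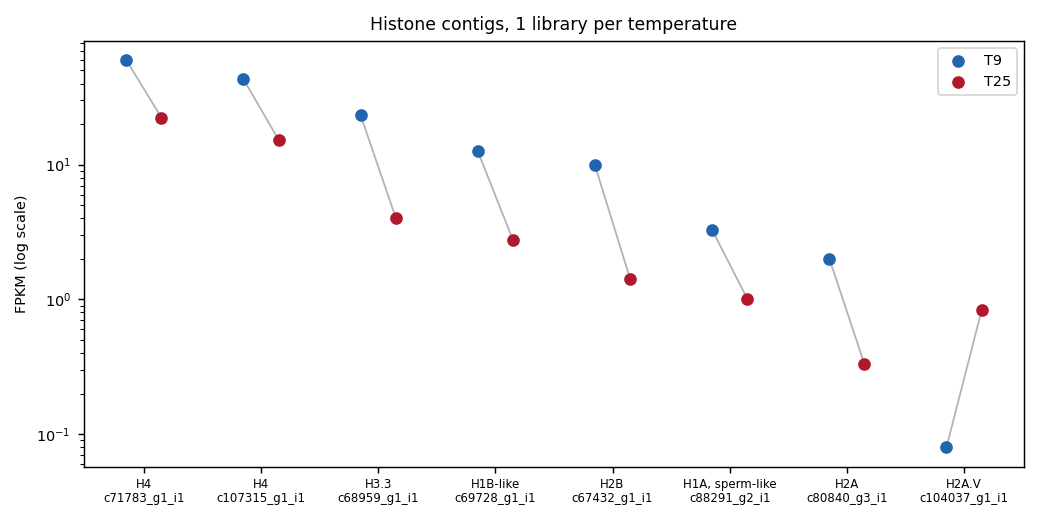
FPKM of the 8 histone contigs (vertical, log scale) in the T9 library (blue, left of each pair) and the T25 library (red, right), in order of the T9 level. In 7 of 8 pairs the T9 point is the higher one, and H2A.V, with 1 count in T9 and 10 in T25, is the exception.

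Contigs named for enzymes that modify histones or for other chromatin proteins counted 3 of 8 higher and 5 lower in T9, all of them at no more than 2.56 FPKM in either library. Without c90390_g2_i2, whose name is in doubt as described for it, the list counted 3 higher and 4 lower, with 95 counts in T9 and 142 in T25. The histone-lysine N-methyltransferase 2C-like gene, a relative of the mammalian enzymes that methylate lysine 4 of histone H3 at enhancers, was represented by a pair of contigs with the same best-matched gene (LOC105197366). One of these, c89409_g3_i2, had 30 counts in T9 and 79 in T25, 2.85-fold (1.85 to 4.49) lower in T9. The other, c98279_g1_i1, had 8 counts in T9 and 27 in T25, 3.65-fold (1.61 to 9.29) lower, so both contigs lay on the same side.

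Trithorax (c70283_g1_i1), an H3 lysine 4 methyltransferase that keeps developmental genes active in flies, had 3 counts in T9 and 16 in T25, 5.76-fold (1.65 to 30.9) lower. Polyhomeotic-proximal chromatin protein-like (c21648_g1_i1), of the Polycomb group that keeps such genes silent, had 1 count in T9 and 10 in T25, 10.8-fold (1.54 to 469) lower. On the higher side, the lysine demethylase PHF8-like (c84026_g1_i1) had 28 counts in T9 and 8 in T25, 3.24-fold (1.44 to 8.22) higher. CARMER (c113110_g1_i1), an arginine methyltransferase of histones in flies, had 15 counts in T9 and 1 in T25, 13.9-fold (2.14 to 584) higher. The remodelling helicase CHD7 (c89349_g25_i1), known as kismet in flies, had 10 counts in T9 and 1 in T25, 9.25-fold (1.32 to 402) higher. None of these 5 had more than 28 counts in a library. The names of c21648_g1_i1, c84026_g1_i1 and c113110_g1_i1 come from the nucleotide match alone, with no protein match, so their identity is uncertain.

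The contig c90390_g2_i2, named YEATS domain-containing protein 2-like, had 1 count in T9 and 213 in T25, or 0.01 and 2.56 FPKM, and was 230.2-fold (40.9 to 9134) lower in T9. It holds the lowest log2 ratio of the members, -6.82. YEATS domains bind acetylated or crotonylated histone tails, but this name comes from the nucleotide match to the Argentine ant Linepithema humile alone. Its protein match is an uncharacterized Solenopsis invicta protein (LOC105197610), and the domain the authors' Pfam search found is RVT_1, a reverse transcriptase domain, of the kind retroelements carry. It is therefore called by its contig in the text. It was kept in the histone modifier and chromatin group by the name, and holds 213 of the 355 counts of that group in T25.

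The largest subunit of RNA polymerase II carries the catalytic centre. A pair of contigs had a partial subunit 1-like protein as best match, with 1 KEGG gene (LOC105205955), and neither had a Pfam domain or a UniProt match, so their identity is uncertain. Of these c87416_g3_i1 had 7 counts in T9 and 65 in T25, 10.0-fold (4.6 to 25.9) lower in T9, although its nucleotide match is another gene, an activator of cyclin-dependent kinase 5. The contig c104165_g1_i1 had 4 counts in T9 and 24 in T25, 6.48-fold (2.23 to 25.7) lower. RNA polymerase II degradation factor 1 (c65288_g1_i1), whose yeast namesake acts in destroying stalled polymerase, had 4 counts in T9 and 29 in T25, 7.83-fold (2.75 to 30.7) lower. Its name comes from the protein match alone. The nucleotide match is an uncharacterized gene, and c65288_g1_i1 had no Pfam domain or UniProt match, so its identity is uncertain too. Mediator subunit 1 (c75328_g1_i2), through which hormone receptors contact Mediator in mammals, had 4 counts in T9 and 20 in T25, 5.40-fold (1.81 to 21.7) lower.

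The other 2 contigs of this group were higher in T9. Rtf1 (c79055_g2_i1), part of the Paf1 complex that travels with elongating polymerase, had 94 counts in T9 and 27 in T25, 3.22-fold (2.08 to 5.14) higher. RPABC3 (c114902_g1_i1), a small subunit shared by all nuclear RNA polymerases, had 24 counts in T9 and 6 in T25, 3.70-fold (1.47 to 11.1) higher. Both higher contigs were named by nucleotide match with no protein match. Summed over the 6, 137 counts were in T9 and 171 in T25, and Rtf1 alone gave 68.6% of the T9 counts.

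RNA-binding and splicing proteins counted 4 contigs higher and 6 lower in T9, and no contig of the list was named for polyadenylation. None of these 10 contigs had a Pfam domain or a UniProt match, so the identity of each is uncertain. The glycine-rich RNA-binding protein 2-like contig (c79765_g1_i1) had the highest level of all 48 members in T9, with 69.1 FPKM in T9 and 21.8 FPKM in T25. Its 2682 counts in T9 and 857 in T25 made it 2.90-fold (2.68 to 3.13) higher in T9, and it holds 93.4% of the T9 counts of its group. Glycine-rich RNA-binding proteins of plants are known for responding to cold. Whether c79765_g1_i1 does so was not tested, and the other glycine-rich contig, c75864_g1_i1, was lower in T9. The protein match of c79765_g1_i1 is an uncharacterized ant protein, so its RNA binding rests on the nucleotide and KEGG names.

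The other 3 contigs of the list that were higher in T9 follow. Serine/arginine-rich splicing factor 2 (c81363_g2_i1), which marks exons for the spliceosome, had 68 counts in T9 and 20 in T25, 3.15-fold (1.89 to 5.47) higher in T9. Nova-1 (c86771_g6_i1), a splicing regulator of neurons in mammals, had 39 counts in T9 and 9 in T25, 4.01-fold (1.91 to 9.41) higher. Fusilli (c88165_g1_i1), whose mammalian relatives direct epithelial splicing, had 31 counts in T9 and 6 in T25, 4.78-fold (1.97 to 14.0) higher. All 3 names come from the nucleotide match alone.

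The 6 contigs of the list that were lower in T9 carried 4 names. Musashi homolog Rbp6, a translational regulator of neural cells, was matched by c61656_g1_i1 with 1 count in T9 and 13 in T25 and by c116361_g1_i1 with 2 counts in T9 and 18 in T25. RNA-binding protein 24-like, known from muscle splicing in vertebrates, was matched by c85327_g1_i2 with 7 counts in T9 and 42 in T25, 6.48-fold (2.89 to 17.1) lower. A further contig of that name, c86029_g1_i1, had 3 counts in T9 and 32 in T25, 11.5-fold (3.61 to 58.8) lower. The glycine-rich RNA-binding, abscisic acid-inducible protein-like contig c75864_g1_i1 had 1 count in T9 and 13 in T25. RNA-binding protein 12B-like (c89440_g2_i1) had 39 counts in T9 and 108 in T25, 2.99-fold (2.06 to 4.43) lower, and its nucleotide match is titin-like, a muscle gene. Each of these 6 contigs had under 3 FPKM in both libraries.

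Marker words of other tissues moved strongly in the same table. Contigs of head sense organs (odorant and gustatory receptors, opsins and sensory neuron membrane proteins) were lower in T9 in 48 of 50 cases, with 1200 counts in T9 and 7394 in T25. Gut contigs (trypsins, chymotrypsins, peritrophins and maltases) were higher in 21 of 28 cases, with 242906 counts in T9 and 9861 in T25. Over all contigs 54.7% were higher. A total of at least 100 counts was reached by 23 gut contigs, 18 of them higher, while 64.2% of all contigs of that depth were higher. The words chosen for ovary and germline found 3 contigs, all vitellogenins, each higher in T9, with 68472 counts in T9 and 22193 in T25. No contig in the table carried vasa, nanos or oskar in its name, so these values are not read as ovary or germline content. The part of tissue content in the values of the chromatin and RNA contigs was not tested.

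**Figure D3:**
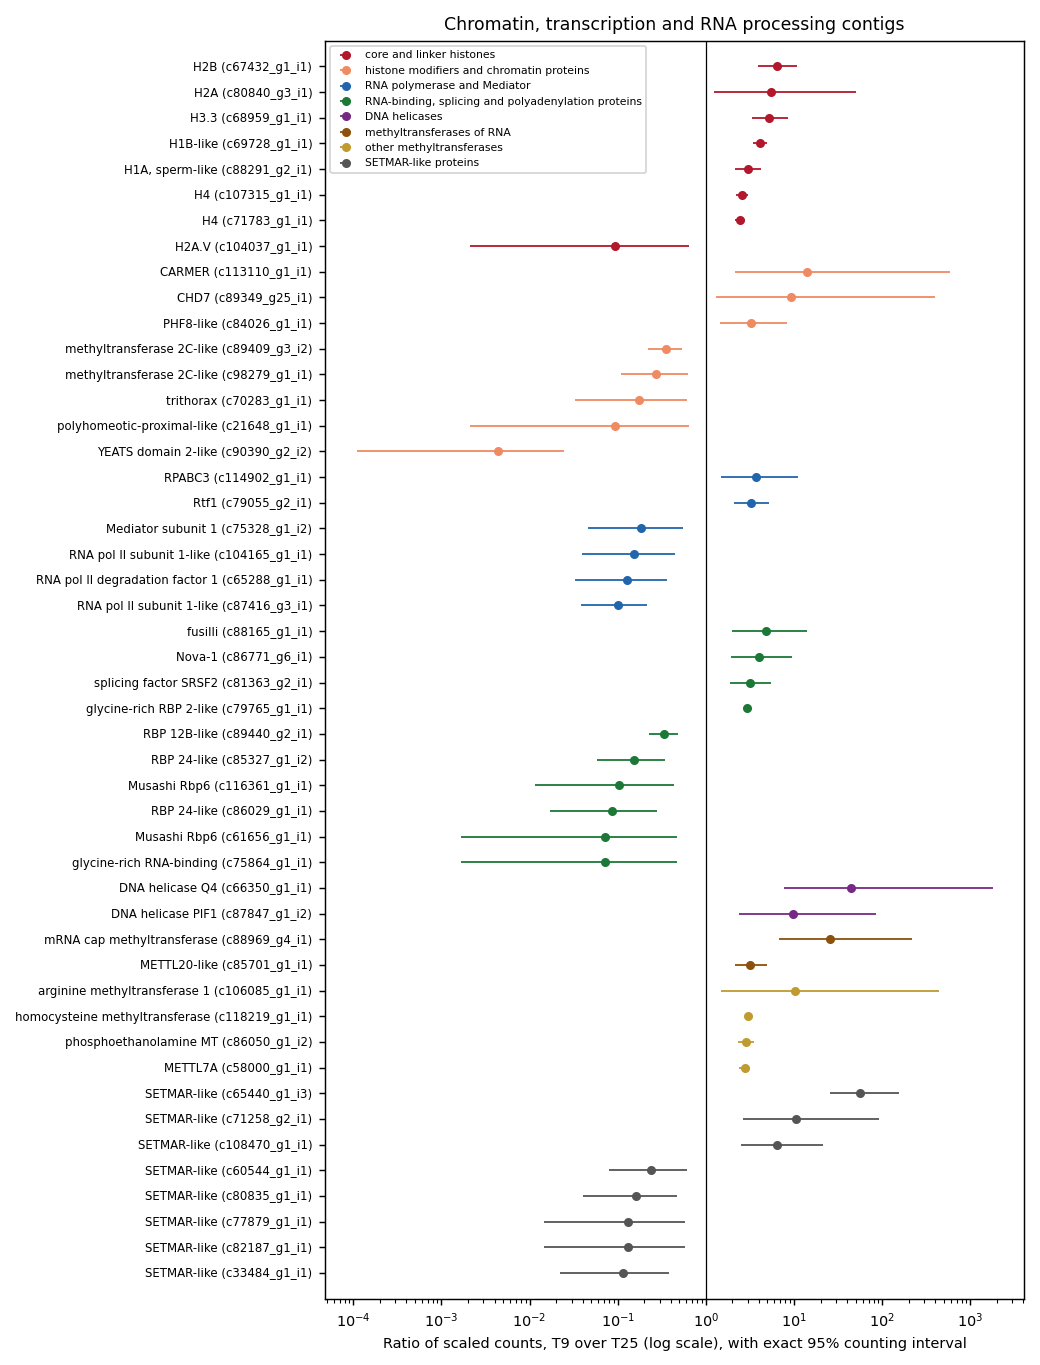
Ratio of scaled counts, T9 over T25 (horizontal, log scale), of each of the 48 members, grouped by role and, within a role, from the highest ratio down. Points are ratios, bars exact 95% counting intervals, and the vertical line marks a ratio of 1. The widest bars belong to contigs with 1 count in a library, such as c90390_g2_i2 at the far left.

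DNA helicases unwind DNA in replication and repair, and both contigs named so were higher in T9. ATP-dependent DNA helicase Q4 (c66350_g1_i1), of the RecQ family, had 48 counts in T9 and 1 in T25, or 8.67 and 0.18 FPKM, 44.4-fold (7.60 to 1791) higher in T9. Its name comes from the nucleotide match alone. PIF1 (c87847_g1_i2), a helicase of telomeres and mitochondrial DNA in yeast and one also carried by Helitron mobile elements, had 21 counts in T9 and 2 in T25, 9.72-fold (2.38 to 85.5) higher. RNA helicases, which remodel RNA in splicing, translation and decay, had 0 contigs among the members.

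Methyltransferases outside the histone modifier and SETMAR-like lists were higher in 6 of 6 cases, while 54.7% of all contigs were higher. The word also brought in enzymes of small molecules. The mRNA cap guanine-N7 methyltransferase-like contig (c88969_g4_i1), which completes the cap of a new mRNA, had 55 counts in T9 and 2 in T25, 25.4-fold (6.72 to 215) higher in T9. METTL20-like (c85701_g1_i1), which the words placed among the RNA enzymes although its name is that of a protein lysine methyltransferase, had 107 counts in T9 and 31 in T25, 3.19-fold (2.12 to 4.93) higher. Protein arginine N-methyltransferase 1 (c106085_g1_i1), the main enzyme of arginine methylation in animals, had 11 counts in T9 and 1 in T25, 10.2-fold (1.48 to 438) higher. The names of c88969_g4_i1, c85701_g1_i1 and c106085_g1_i1 come from the nucleotide match alone, with no protein match, so their identity is uncertain.

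Metabolic enzymes held most counts of this class. Homocysteine S-methyltransferase 2-like (c118219_g1_i1), which makes methionine, had 2239 counts in T9 and 685 in T25, or 33.2 and 10.0 FPKM, 3.02-fold (2.78 to 3.3) higher. Methyltransferase-like protein 7A (c58000_g1_i1), linked to lipid droplets in mammals, had 772 counts in T9 and 260 in T25, 2.75-fold (2.38 to 3.17) higher. The phosphoethanolamine N-methyltransferase-like contig c86050_g1_i2 had 384 counts in T9 and 126 in T25, 2.82-fold (2.30 to 3.48) higher. Its UniProt match is instead juvenile hormone acid O-methyltransferase, so which substrate it acts on is not settled by the annotation.

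SETMAR-like contigs carry the name of a primate protein in which a histone methyltransferase is fused to the transposase of a mariner mobile element, and in insects the name usually marks the transposase. Among the 8, 3 were higher and 5 lower in T9. Of 5 with a Pfam domain, 3 had a domain named for transposases (HTH_Tnp_IS630, DDE_3 and Transposase_1) and 0 a histone methyltransferase domain. The contig c65440_g1_i3 had 366 counts in T9 and 6 in T25, or 6.15 and 0.10 FPKM, 56.4-fold (25.7 to 155) higher in T9, and holds 83% of the T9 counts of the group. It has the largest log2 ratio of all members, 5.61.

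The other SETMAR-like contigs had 40 counts or fewer in all. On the higher side c108470_g1_i1 had 35 counts in T9 and 5 in T25, and c71258_g2_i1, matched at the nucleotide level to pro-resilin, had 23 in T9 and 2 in T25. On the lower side c33484_g1_i1 had 3 counts in T9 and 24 in T25, 8.65-fold (2.63 to 44.9) lower. The contigs c80835_g1_i1 (4 counts in T9 and 23 in T25) and c60544_g1_i1 (6 in T9 and 23 in T25) lay on the same side, as did c77879_g1_i1 and c82187_g1_i1, each with 2 counts in T9 and 14 in T25. Copies of a mobile element share sequence, so the split of reads between these contigs is uncertain. Without the SETMAR-like group, an alternative chosen after the data were seen, the members counted 24 higher and 16 lower.

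**Figure D4:**
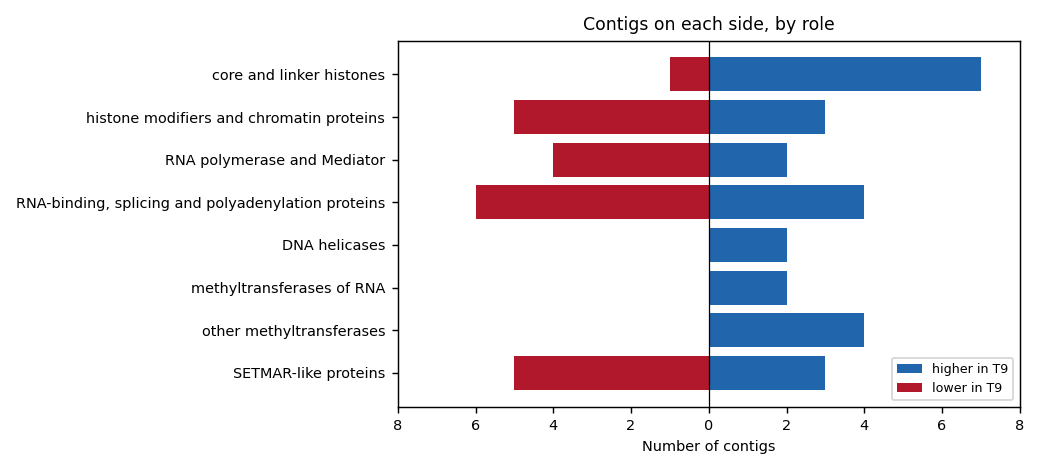
Number of contigs higher in T9 (blue, to the right of 0) and lower in T9 (red, to the left) in each role. Histones show 7 contigs to the right and 1 to the left, while RNA polymerase and Mediator show 2 and 4.

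Names rested on the nucleotide match alone in 25 of the 48 members, of which 15 were higher and 10 lower in T9. On the protein match alone rested 9 members, 3 higher and 6 lower, and on both matches 14 members, 9 higher and 5 lower. Of these 48, 16 had no protein match at all, 11 higher and 5 lower. Over all contigs with a nucleotide match and no protein match, 49.1% were higher. Gene ontology terms were attached to 19 members. The term nucleus stood on 8 of them, 6 higher and 2 lower, and over the whole table on 103 of 1038 annotated contigs, 47 higher and 56 lower. The term nucleosome stood on 4 contigs of the table, each a member and each higher in T9. Members were chosen by words such as histone and chromatin, so these terms are not independent of the choice and add no separate result.

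Further genes were sought by other words such as ribonucleoprotein, nuclear pore, Polycomb and acetyltransferase. These words gave 17 contigs, 7 higher and 10 lower in T9, while 54.7% of all contigs were higher. Not all of the 17 belong to the same pathways. Enzymes of transmitters (c88341_g3_i1, c89848_g1_i2 and c89848_g2_i1), a heparan sulfate enzyme (c70783_g1_i2) and a NatC subunit (c85550_g1_i1) are among them. Of these, c88341_g3_i1, c70783_g1_i2 and c85550_g1_i1 were higher in T9, and c89848_g1_i2 and c89848_g2_i1 were lower. The H/ACA ribonucleoprotein complex guides pseudouridylation of ribosomal RNA. Contigs named for its subunit 1 were lower in T9 in 5 of 5 cases, while 45.3% of all contigs were lower. Of the 5, c84617_g2_i1 and c84617_g3_i3 come from 1 assembly component, so they need not be separate genes. Another of the 5, c73919_g1_i1, had 223 counts in T9 and 652 in T25, 3.16-fold (2.71 to 3.70) lower. Heterogeneous nuclear ribonucleoproteins package pre-mRNA, and hnRNP 27C (c89289_g2_i1) had 252 counts in T9 and 815 in T25, 3.49-fold (3.03 to 4.04) lower, while hnRNP K (c19608_g1_i1) had 1 count in T9 and 17 in T25. The Polycomb group protein Pc-like (c83510_g2_i1), which binds methylated histone H3, had 250 counts in T9 and 85 in T25, 2.72-fold (2.12 to 3.52) higher.

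Words for acetyltransferases brought in enzymes of transmitters. Choline O-acetyltransferase, which makes acetylcholine, was 2.68-fold (2.33 to 3.10) lower in T9 for c89848_g1_i2, with 275 counts in T9 and 683 in T25. Dopamine N-acetyltransferase-like (c88341_g3_i1) had 437 counts in T9 and 18 in T25, 22.5-fold (14.0 to 38.3) higher. The NatC subunit N-alpha-acetyltransferase 38 (c85550_g1_i1), which acts on new proteins, had 66 counts in T9 and 17 in T25, 3.59-fold (2.08 to 6.53) higher.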

How the data were processed

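The authors sequenced RNA of whole workers, with 1 library for each temperature. According to the submitters' notes and the methods, reads were trimmed (Trimmomatic 0.38), pooled and assembled with Trinity, clustered with CD-HIT, aligned with Bowtie 1.1.2 and counted per contig with RSEM. Read counts were deposited unnormalised, and the smallest in the table is 1. FPKM values, scaled by the authors for contig length and sequencing depth, were deposited beside them. The deposited log2 values, log2(CPM + 1), carry the authors' normalised library sizes, 53237356 for T9 and 49264352 for T25, recovered here from the counts. The contigs analysed hold 7176142 counts of T9 and 11259918 of T25. Deposited fold changes, p-values and adjusted p-values were not used.

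Ratios were computed from counts over those library sizes and their counting error was given as an exact 95% interval (Clopper-Pearson), and log2 ratios after adding 1 to each scaled count (Python 3.11.15, numpy 2.4.6, pandas 2.3.3, scipy 1.17.1, matplotlib 3.10.9). Calculations were tested on simulated data. No test of temperature was possible with 1 library each. Each member was given to 1 of 9 role lists by words of its protein name, or of its nucleotide name where the protein name held none. The members and lists were chosen with earlier results of these data known. Named contigs were the 5 with the largest total of each list, the 3 highest and 3 lowest ratios among totals of at least 50 counts, all of lists of 5 or fewer, c90390_g2_i2, and the 3 largest of each side among the further genes. The remaining members are named to account for all, and hnRNP K was chosen after its values were seen. Alternatives covered scaling, pseudocount, depth, organism, counting unit, database and threshold.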

Additional observations from a re-analysis of the deposited data

How the results depend on the processing

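Scaling by clean read totals shifted the log2 ratio by 0.13, FPKM ratios by a median of 0.13, and 0 of 48 members changed side under either. The smallest absolute log2 ratio of a member was 1.29, by the authors' choice of contigs. Among members that reached 100 counts in all, 13 members were higher and 3 lower in T9, 4 at least 4-fold higher and 1 at least 4-fold lower. With an ant as best protein match, 12 of 26 members were higher, 7 at least 4-fold higher and 12 at least 4-fold lower, and the median log2 ratio turned from 1.47 to -1.61. That setting kept 2 of the 8 histone contigs, both higher. The best protein matches of H2B, H2A and both H4 contigs were not ants, and H3.3 and H2A.V had no protein match. With the protein description alone, 12 were higher and 11 lower, 7 at least 4-fold higher and 9 at least 4-fold lower. At an 8-fold threshold, 8 were higher and 9 lower. In each of these settings fewer contigs are counted by construction. Taking 1 contig per assembled gene left 48 contigs and changed nothing. At a total of at least 100 counts the median of RNA polymerase and Mediator turned from -2.29 to 1.65 and that of SETMAR-like proteins from -2.12 to 5.61, each resting on 1 contig. The median was 1.47 with a pseudocount of 0.5 and 1.28 with 5. At a 3-fold threshold, 21 were higher and 19 lower. Leaving out the SETMAR-like contigs, chosen after seeing the data, kept the counts within 1.5 times and the sign of the median, as did leaving out c90390_g2_i2 for the histone modifiers. No paired analysis was possible because each temperature has 1 library. No replicate could be left out for the same reason. With 3 or fewer counts in a library, as in 19 members, the size of a ratio is not fixed by these data.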

Other observations

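Outside the members, 10 contigs carried a word of the rule in their UniProt or KEGG match but not in the NR or NT match, 5 higher and 5 lower in T9. They were looked up after the data were seen. The contig c30447_g1_i1, a putative Mediator subunit 12 by its KEGG name, had 103 counts in T9 and 530 in T25, 5.56-fold (4.49 to 6.94) lower in T9. The contig c104783_g1_i1, RNA-binding protein 12 by UniProt, had 24 counts in T9 and 62 in T25, 2.79-fold (1.72 to 4.68) lower. The contig c86050_g3_i2, whose UniProt match is juvenile hormone acid O-methyltransferase like that of the member c86050_g1_i2 of the same assembly component, had 1077 counts in T9 and 223 in T25, 4.47-fold (3.87 to 5.19) higher. A further contig with that UniProt match, c119527_g1_i1, had 1 count in T9 and 11 in T25. The other 6 were named for mobile elements or genes related to them (mariner, SETMAR, HARBI1 and ALP1). Among these, c88935_g4_i1, mariner transposase by UniProt and SETMAR-like by KEGG, had 22 counts in T9 and 292 in T25, 14.3-fold (9.29 to 23.2) lower, and c86184_g1_i1, ALP1-like by KEGG, had 636 counts in T9 and 70 in T25, 8.41-fold (6.56 to 10.9) higher.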
